A study of Mus musculus with 4 samples.

Results

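The genes described here carry lactate across cell membranes or interconvert lactate and pyruvate: the monocarboxylate transporter genes Slc16a1, Slc16a3, Slc16a7 and Slc16a12, the transporter chaperone genes Bsg and Emb, and the lactate dehydrogenase genes Ldha, Ldhb and Ldhc. They were selected on the called difference of Slc16a12 between the genotypes and then completed by name and function, and every array probe set whose platform symbol, or an alias of it, was one of these 9 genes was included, which gave 17 of the 45037 mouse probe sets, for 9 of the 18161 genes that the platform names. For 1 of the 17, an older name was an alias of Slc16a7, and 0 probe sets shared between a member and another gene had to be dropped. Because the same genotype contrast chose the group, its differences are given as a description, with no p-value. The knockout testis had a far higher signal for Slc16a12, at 99.7 and 78.3 against 24.9 and 22.7 in the wild type, slightly higher signals for Emb and Ldhb, and signals for Ldha and for the sperm enzyme gene Ldhc that lay within the spread of the arrays.

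RNA came from whole testes of male C57BL/6J mice aged 8 weeks, 2 of them wild type and 2 of them Taf7l knockout, and the series design calls them littermates. Each RNA was hybridised to its own Affymetrix array. Taf7l is an X-linked gene for a germ cell relative of a TFIID subunit, the allele and its deleted part are not given in the sources used here, and no cell type was purified. In whole tissue, fewer cells of a type and less RNA per cell cannot be told apart. The second knockout array carries replicate number 1 in its description and 2 in its title, so whether both knockout arrays came from separate animals is not settled, and the spread between arrays may be technical.

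Lactate is the preferred fuel of meiotic and postmeiotic germ cells, which lie behind the blood-testis barrier and receive little glucose. Sertoli cells take up glucose, run glycolysis, reduce pyruvate to lactate with dehydrogenase A subunits and release the lactate, a step usually assigned to the transporter MCT4 (Slc16a3) and shared by MCT1 (Slc16a1). Germ cells import it through MCT1 and the high-affinity MCT2 (Slc16a7), oxidise it to pyruvate, and from the pachytene stage on make their own dehydrogenase from Ldhc. The transporters reach the membrane only with a chaperone of the immunoglobulin superfamily, basigin (Bsg) or embigin (Emb). MCT12, encoded by Slc16a12, belongs to the same family by sequence but is known as a carrier of creatine rather than of lactate.

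Taf7l itself had a signal of 829 and 818 in wild type and of 80.6 and 72.5 in the knockout, with no overlap. The median mouse probe set lay between 45.2 and 45.7 on all 4 arrays. Only probe sets averaging at least 45.8 over the 4 arrays, the middle value of all such averages, entered the tests. This cut is not a detection limit, since no detection calls were given, and dimmer probe sets were treated as not measured. Among markers of the cells that make and use lactate, 8 of 11 measured Sertoli genes were higher in the knockout, with a signal of 69009 to 71359 in wild type and 84255 to 86003 in the knockout, summed over the 13 listed genes on the array at their brightest probe sets. That sum was carried by the bright genes Clu, Ctsl, Cst12 and Aard (log2 differences of 0.27, 0.44, 0.25 and 0.19), the median difference of the 11 was 0.07, 0 were called by limma with 4 at an unadjusted p under 0.05, and Inhbb was lower without overlap (−0.24). The sums that follow were made in the same way. Of all 12231 genes tested, 4810 were higher and 7421 lower, with a median difference of −0.05, and the marker counts are to be read beside that. Of 11 spermatid genes 10 were lower (458028 to 473686, and 424150 to 435589), with a median difference of −0.15, or −0.10 after quantile normalization. Of 9 spermatocyte genes 5 were lower (102421 to 103506, and 95048 to 98083). Their median of −0.07 turned to 0.06 after quantile normalization. All 5 Leydig genes measured were higher (16431 to 16641, and 20460 to 20906), as were all 9 leukocyte genes (2878 to 3081, and 3267 to 3636). In the limma fit the steroidogenic gene Cyp17a1 was the only one of these 45 markers called, and 17 (37.8%) had an unadjusted p under 0.05, beside 27.9% of all 12231 genes tested. Of 14 measured markers of spermatogonia, endothelium, peritubular myoid cells, red blood cells and skeletal muscle, 9 were higher, 0 were called by limma and 0 had an unadjusted p under 0.05. Among 5 measured adipocyte and 4 measured epididymis markers, 0 were called and 1 on each list had an unadjusted p under 0.05. The 37.8% holds for the first 5 lists only, and no excess of moved markers is read from it. Wild type replicate 2 stood apart with more adipocyte signal (4145, against 972 to 1776 on the other arrays) and more epididymis signal (892, against 413 to 452). The ratio of 3′ to 5′ actin signal, a measure of RNA integrity, was 2.09 and 1.999 in wild type and 2.42 and 2.18 in the knockout, and its part in the differences was not tested. At 10 of the 13 member probe sets that passed the filter, the 2 wild type arrays were no farther apart than the median probe set (0.09 on the log2 scale). The exceptions were Slc16a12 (0.13) and both kept probe sets of Emb (0.14 and 0.15, the largest gap). These were also the kept member probe sets with the largest differences between the genotypes.

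Of the 17 member probe sets, 13 passed the signal filter, covering 8 of the 9 genes. The only gene left without a measured probe set was Slc16a3. In the fit over all 22519 kept probe sets with limma, a linear model that shares information on variance across probe sets, 1 of the 13 was called at an adjusted p under 0.05, that of Slc16a12, against 1.39% of all kept probe sets in either direction, 0.444% called higher and 0.941% called lower. Since the group was drawn up from this contrast, nothing is read from that count. The knockout arrays lay wholly above the wild type arrays at 8 of the 13 (18.7% of all kept probe sets did so) and wholly below at 1 (36.3%), which makes 9 of 13 without overlap against 55% of all. The 8 are not separate observations, because 4 of them target Ldhb and 2 target Emb. They also include Slc16a12, whose difference chose the group and whose probe set passed the filter only through the knockout arrays. Nothing is read from these counts either. By gene, all kept probe sets lay above for Slc16a1, Slc16a12, Emb and Ldhb, below for Slc16a7, and overlapped for Ldha, Ldhc and Bsg.

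**Figure D1:**
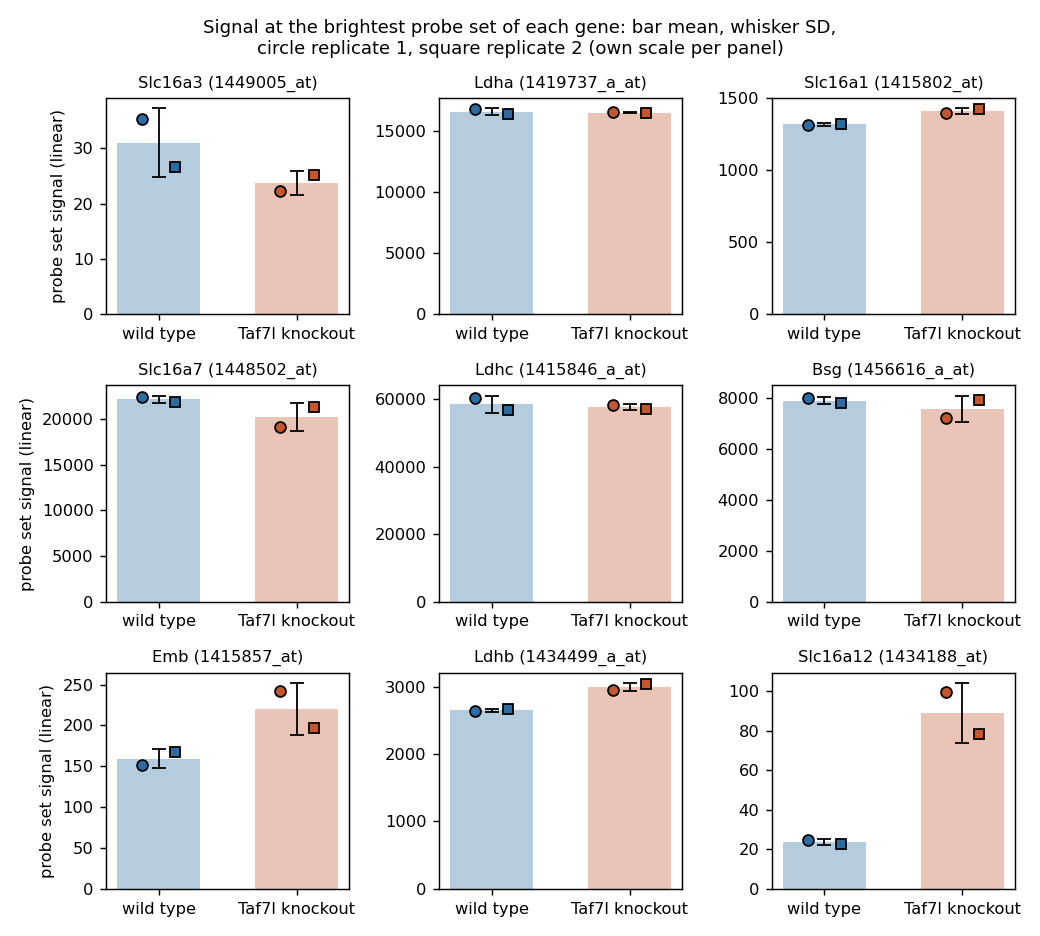
Linear probe set signal on each array at the brightest probe set of each of the 9 genes, with bars for the mean and whiskers for the SD of 2 arrays, circles for replicate 1 and squares for replicate 2. Each panel has its own scale from 0, and levels of different genes are not comparable. Slc16a12 goes from a mean of 23.8 to 89.0, while Ldha and Ldhc have overlapping arrays.

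On the side of Sertoli export, the carrier usually assigned to this step could not be measured. Slc16a1, which shares the step, was measured and is given below with the germ cell side. Slc16a3, which encodes the carrier MCT4 of glycolytic cells, had signals of 35.4 and 26.6 in wild type and 22.2 and 25.3 in the knockout, all under 45.8. Signals this low do not give a level or a direction, although the wild type arrays were the brighter pair. The enzyme of this side was bright and even. Ldha, whose A subunit favours the reduction of pyruvate to lactate, had signals of 16783 and 16414 in wild type and 16544 and 16490 in the knockout. The means, 16599 ± 261 and 16517 ± 37.8 (SD, n = 2 each), differed by −0.01 on the log2 scale, with the knockout arrays lying between the wild type ones. After quantile normalization the difference was 0.08, so it has no settled sign. Ldha RNA is not confined to Sertoli cells, and which cells the signal came from was not measured.

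The carriers of the germ cell side differed little, and in opposite directions. Slc16a1, which encodes MCT1, the broadly expressed lactate carrier, had signals of 1312 and 1324 in wild type and 1397 and 1423 in the knockout. Both knockout arrays were above both wild type arrays, by 0.10 on the log2 scale (1.07-fold), and the gap stayed between 0.08 and 0.11 with any array left out. Quantile normalization made it 0.21. A second Slc16a1 probe set, at 5.19 to 5.38 on every array, was far under the filter.

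Slc16a7, which encodes MCT2, the carrier with the highest affinity for lactate and pyruvate and the form found on the sperm tail, had signals of 22404 and 21832 in wild type and 19134 and 21281 in the knockout. Its means of 22118 ± 405 and 20208 ± 1518 differed by −0.13 on the log2 scale (1.10-fold lower). The groups did not overlap, but most of the difference lay on knockout replicate 1, without which it was −0.06. The probe set matched through the alias was dim, at 34.0 to 44.7, and its groups overlapped. The 10 of 11 spermatid markers that were lower moved in the same direction as Slc16a7, and their part in its difference was not tested. Of all 12231 genes tested, 7421 were lower too.

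The chaperones behaved differently from each other. Bsg encodes basigin, the partner of MCT1 and MCT4, and its loss makes male mice sterile. Its signal was 8007 and 7808 in wild type and 7207 and 7949 in the knockout, so that the groups overlapped. The means of 7907 ± 141 and 7578 ± 525 differed by −0.06 on the log2 scale, which became 0.04 after quantile normalization and 0.01 without knockout replicate 1. As with Slc16a7, knockout replicate 1 was the lowest of the 4 arrays for Bsg. The actin ratio was highest on that array (2.42), and its part in both differences was not tested.

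Emb encodes embigin, the basigin relative known as a chaperone of MCT2, and its signal was higher in the knockout at both probe sets that passed the filter. The brighter had 151 and 167 in wild type and 243 and 198 in the knockout, a difference of 0.46 on the log2 scale (1.38-fold). The dimmer had 68.3 and 75.6 in wild type and 86.3 and 96.4 in the knockout, a difference of 0.34 (1.27-fold). Every knockout array was above every wild type array in both, and the difference lay between 0.26 and 0.61 with any array left out. The order of the knockout arrays was reversed between the 2 probe sets, with replicate 1 the higher in the brighter and replicate 2 in the dimmer. These probe sets were designed from the same sequence record and are not independent. The third, at 8.09 to 8.61, was far under the filter. Apart from Slc16a12, Emb showed the largest difference of any kept member. Leydig markers (median difference 0.34), leukocyte markers (0.12) and the summed Sertoli signal were higher on the same arrays. The Sertoli list was mixed, with 3 of 11 genes lower and a median of 0.07, near those of spermatogonium (0.08) and peritubular myoid markers (0.05). The part of any of these cells in the Emb difference was not tested.

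Ldhb encodes the dehydrogenase B subunit, which favours the oxidation of lactate and is abundant in heart. All 4 of its probe sets gave higher signals in the knockout, with no overlap. The brightest had 2635 and 2666 in wild type and 2951 and 3038 in the knockout. The second had 2045 and 2002, and 2378 and 2335. The third had 1887 and 1971, and 2325 and 2186, and the fourth 1910 and 1798, and 2269 and 2161.

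The 4 differences were alike, between 0.18 and 0.26 on the log2 scale (1.13-fold to 1.19-fold), and stayed between 0.15 and 0.30 with any array left out and between 0.31 and 0.38 after quantile normalization. All 4 target RNA of 1 gene, so they are not 4 independent measurements. No Ldhb probe set passed the test over all probe sets. Leydig markers (median difference 0.34), leukocyte markers (0.12) and the summed Sertoli signal (list median 0.07) were also higher on the knockout arrays, and their part in the Ldhb difference was not tested.

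Ldhc encodes the C subunit of the sperm dehydrogenase, on which sperm ATP and motility depend. Its brighter probe set had 60292 and 56702 in wild type and 58328 and 57158 in the knockout. The dimmer had 38605 and 36432 in wild type and 37784 and 36550 in the knockout. At both, the 2 knockout arrays lay inside the range of the wild type arrays, and replicate 1 was above replicate 2 in each genotype.

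The Ldhc differences were −0.02 and −0.01 on the log2 scale, and between −0.06 and 0.03 with any array left out. The sign at the brighter probe set turned to 0.01 after quantile normalization. Beside these stand the median differences of the spermatid markers, −0.15, and of all genes tested, −0.05, and they were not compared by a test.

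In the RefSeq gene order Ldha and Ldhc are neighbours on chromosome 7, with only the long noncoding RNA gene Gm39011 listed between them. The start regions of 7 of the 9 genes were found in the RefSeq table of assembly GRCm38.p6, as 9 windows, and Bsg and Slc16a7 had no entry. Because Taf7l belongs to the TFIID family, whose TATA-binding subunit recognises a TATA box, the 100 bases before each start were searched on both strands for TATAAA. The same stretches were searched for TGACGT, the core of the cAMP response element used by the spermatid factor CREM, and for the GC box GGGCGG. The 4 stretches shown are those of the sperm dehydrogenase, of the dehydrogenase and the carrier of the Sertoli side, and of the gene that differed most, with motif letters in capitals and each read 5′ to 3′ up to the base before the start.
Ldhc, plus strand, chr7:46861163-46861262: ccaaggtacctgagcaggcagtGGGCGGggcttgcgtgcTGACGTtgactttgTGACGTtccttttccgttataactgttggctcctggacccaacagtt
Ldha, plus strand, chr7:46845704-46845803: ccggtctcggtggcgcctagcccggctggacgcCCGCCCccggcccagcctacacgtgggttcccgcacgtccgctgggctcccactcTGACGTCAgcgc
Slc16a3, plus strand, chr11:120948967-120949066: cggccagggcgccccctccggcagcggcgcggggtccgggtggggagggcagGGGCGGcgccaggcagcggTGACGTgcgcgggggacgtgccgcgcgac
Slc16a12, minus strand, chr19:34747329-34747428: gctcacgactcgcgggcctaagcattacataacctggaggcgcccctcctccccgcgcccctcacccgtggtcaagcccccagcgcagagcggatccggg

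TATAAA was in 0 of the 9 member windows and in 5.56% of the 32851 RefSeq windows of the same length. Only these exact letters were counted. Near matches, such as the tataac in the Ldhc stretch shown, were not, so a lack of TATA elements is not read from this. TGACGT was in 3 of the 9, those shown for Ldhc, Ldha and Slc16a3, and in 4.09% of all windows. Ldhc and Ldha each had a second window, at another start, which held none of the 3 motifs. The Ldhc stretch shown held TGACGT 2 times, at bases −61 to −56 and −47 to −42 from the start. In the Ldha stretch shown the match on each strand overlapped the other to form the letters TGACGTCA. GGGCGG was in 5 of the 9 and in 24.7% of all windows. The Slc16a12 stretch held none of the 3 motifs. These matches describe letters in a short window, and binding was not measured here.

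**Figure D2:**
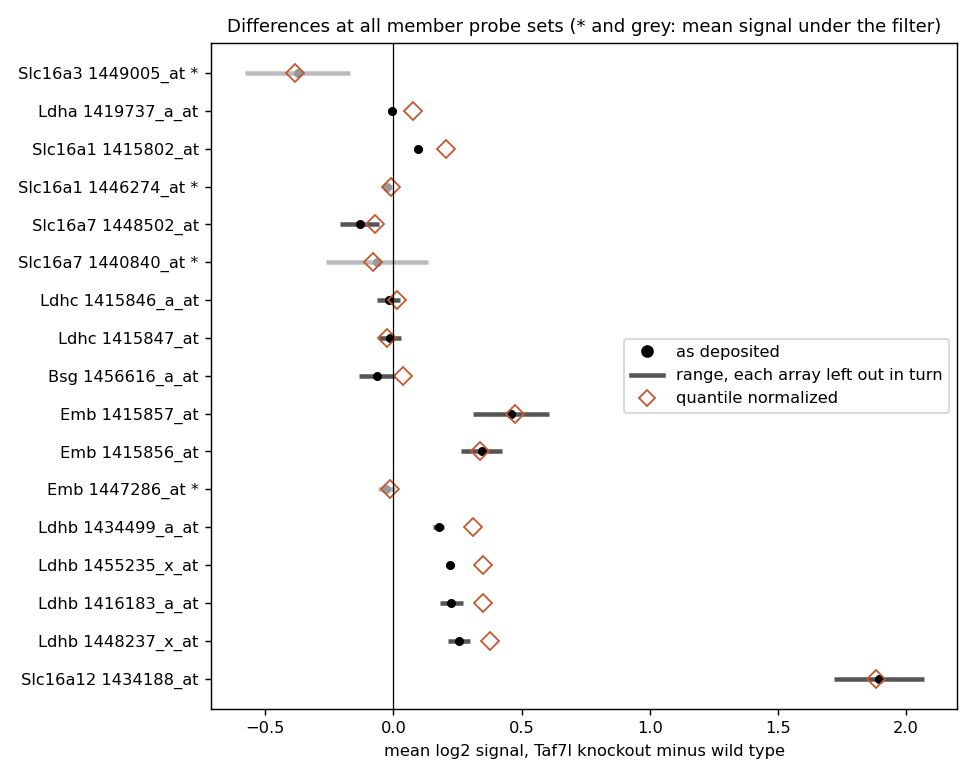
Difference of mean log2 signal, Taf7l knockout minus wild type, at all 17 probe sets, with filled circles as deposited, lines for the range when each array is left out in turn, and open diamonds after quantile normalization. Probe sets in grey with an asterisk had a mean signal under 45.8. Slc16a12 stands at 1.89, and every other kept probe set lies within 0.46 of zero.

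Slc16a12 had 1 probe set on the array. Its signals were 24.9 and 22.7 in wild type and 99.7 and 78.3 in the knockout, so the knockout arrays were far apart from the wild type arrays and both were above the level where probe sets were kept. The wild type signals lay under that level, and the probe set passed the filter only through the knockout arrays. The difference on the log2 scale was 1.89, between 1.72 and 2.07 with any array left out, 1.88 after quantile normalization, and 1.39 when 16 was added to each signal. With the wild type under the filter and no detection calls, this does not give the size of the change as a fold.

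The other genes of creatine handling were not called. Slc6a8, the main creatine transporter gene, had 54.7 and 48.3 in wild type and 55.4 and 49.0 in the knockout. Gatm, for the first enzyme of creatine synthesis, had 1957 and 1597, and 1902 and 2212. Of 6 measured creatine genes 0 were called by limma, 0 had an unadjusted p under 0.05, and the median difference was −0.05, beside −0.05 over all 12231 genes tested at their brightest probe set. The creatine kinase genes Ckb (log2 −0.17) and Ckm (95.7 and 75.2, against 83.4 and 67.7) had overlapping groups.

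The genes whose profile over the 4 arrays was nearest to that of Slc16a12 were found among the 22519 kept probe sets, with each profile centred on its wild type mean and nearness taken as the root mean square distance in log2 units. They were Nmnat3 (0.109), an NAD synthesis gene, Slc12a7 (0.135), a potassium-chloride cotransporter gene, Pik3cd (0.172), a phosphoinositide kinase gene, E2f5 (0.204), a transcription factor gene, and Fitm1 (0.225), a lipid droplet gene. Slc16a12 and Nmnat3, Slc12a7, Pik3cd and E2f5 were all higher on knockout replicate 1 than on replicate 2, and Fitm1 was level. The ranking rests on wild type signals of Slc16a12 under the filter: when 16 was added to each signal, 2 of these 5 genes were still among the nearest 5, so no order is read from it. The signal of Nmnat3 at this probe set went from 297 and 322 to 1189 and 1041. For Ldhc the nearest profiles were those of Mcl1 (0.0034), Spg20 (0.0042), Prmt7 (0.0058), Shoc2 (0.0059) and Inf2 (0.0066), all of them nearly flat over the 4 arrays.

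**Figure D3:**
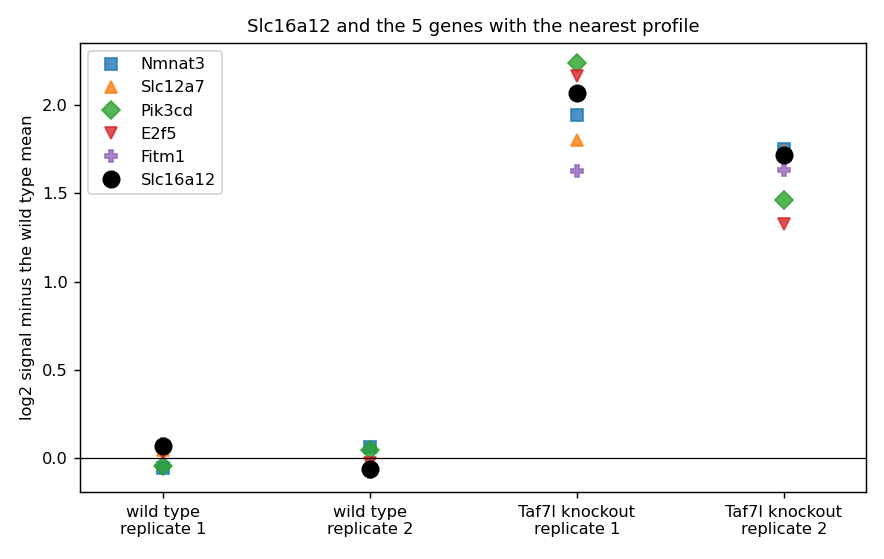
Log2 signal on each array minus the wild type mean of the same probe set, for Slc16a12 (black circles) and the 5 genes with the nearest profile. All 6 lie near zero on both wild type arrays and are higher on both knockout arrays, with Slc16a12 lower on knockout replicate 2 than on replicate 1.

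Further genes of lactate, pyruvate and creatine handling were taken as 6 lists, each gene at its brightest kept probe set. Of 44 measured genes, 22 were higher and 22 lower in the knockout, and 1 was called by limma, against 1.73% of all genes in either direction and 0.54% higher. An unadjusted p under 0.05 was seen for 10 of the 44 (22.7%), against 27.9% of all genes tested, and the counts of such p-values below are to be read beside that share. The called gene was Slc16a6, which encodes MCT7, another carrier of the Slc16a12 family that has been linked to ketone body export from liver. Its signal was 197 and 198 in wild type and 419 and 355 in the knockout, and both groups lay well above the filter. It rose by 0.97 on the log2 scale (SE 0.11, 1.95-fold, limma adjusted p = 0.047), and the adjusted p ranged from 0.029 to 0.35 over the alternatives. The difference lay between 0.85 and 1.09 with any array left out, but it then no longer passed limma's adjustment, with an adjusted p of 0.35 and 0.30 without wild type replicates 1 and 2 and of 0.15 and 0.085 without knockout replicates 1 and 2. The call was also lost with no filter (0.16) and without the variance trend (0.071). The other 4 measured carriers on this list were not called. They included Slc16a4 (76.3 and 61.5, against 94.4 and 61.5) and Slc16a10 (89.6 and 87.6, against 91.1 and 90.9), a carrier of aromatic amino acids.

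Of 13 other enzymes of lactate and pyruvate entry, 6 were higher and 7 lower, and 0 were called by limma, with 4 at an unadjusted p under 0.05. Pdk2, a kinase that inactivates pyruvate dehydrogenase, had 1539 and 1490 in wild type and 1186 and 1187 in the knockout (log2 −0.35, limma adjusted p = 0.063). Dlat, the acetyltransferase core of that dehydrogenase, had 1408 and 1464, and 1110 and 1144 (log2 −0.35, limma adjusted p = 0.067). Pdk4, another of the kinases, had 42.6 and 48.0, and 60.8 and 71.6, and passed the filter only through the knockout arrays, since its wild type mean was 45.3. In each of these 3 genes the groups did not overlap. The list's median was −0.01, against −0.05 for all genes tested. Ldhal6b, a testis-expressed relative of the dehydrogenases, had 30245 and 29366, and 28528 and 29358, a difference of −0.04.

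Of 11 genes of glucose uptake and of the shuttles that carry NADH electrons into mitochondria, 0 were called by limma, with 1 at an unadjusted p under 0.05. That was Gpd2, the mitochondrial glycerol phosphate dehydrogenase, at 26074 and 26769 in wild type and 24872 and 23069 in the knockout (log2 −0.14, limma adjusted p = 0.20). Slc25a12, a mitochondrial aspartate-glutamate carrier, had 56.6 and 69.9, and 75.9 and 85.3 (log2 0.36, limma adjusted p = 0.21). Gpd1, the cytosolic partner of Gpd2, had 214 and 225, and 253 and 226 at its brightest probe set. Its other kept probe set differed by −0.03 on the log2 scale, with overlap. The neuronal-type glucose transporter gene Slc2a3 had 21759 and 22159, and 23061 and 22304 at its brightest probe set, while its other 3 kept probe sets differed by 0.01, −0.24 and −0.24 on the log2 scale, so the gene has no settled direction. Among 5 other immunoglobulin superfamily and basigin partner genes 0 were called by limma, with 3 at an unadjusted p under 0.05, and the cyclophilin B gene Ppib was the nearest to it, at 1728 and 1771 against 2235 and 2189 (log2 0.34, limma adjusted p = 0.062). Ppil2, of the same cyclophilin family, had 2786 and 2872, and 2343 and 2500 (log2 −0.23, limma adjusted p = 0.12), and Slc3a2, for the amino acid transporter subunit CD98, had 1100 and 1029, and 1236 and 1191 (log2 0.19, limma adjusted p = 0.20). Nptn, for neuroplastin, the third chaperone of this family, had 1253 and 1274, and 1183 and 1307, with overlap. Of 4 receptors through which Sertoli lactate output is stimulated, 3 were higher and 0 called by limma, with 1 at an unadjusted p under 0.05, and the list's median was 0.27. Tnfrsf1a had 152 and 165, and 198 and 195 (log2 0.31, limma adjusted p = 0.13), and Il1r1 had 180 and 195, and 210 and 275. The insulin receptor gene Insr had 109 and 60.7, and 84.8 and 106, with overlap. Igf1r, the measured receptor gene that was not higher, differed by −0.01 at its brightest probe set, with overlap. Its other kept probe sets differed by 0.30 and 0.09. The FSH receptor gene Fshr was under the filter. So was Fgfr1, whose brightest probe set had 46.5 and 49.7, and 38.3 and 28.1 (log2 −0.55).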

How the data were processed

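The deposited table holds 1 linear intensity (probe set signal) per array for 45101 probe sets, 64 of them controls, which were left out. The authors made these values with MAS5, per the submitters' processing notes, with no version. Scaling target and detection calls are not given in the sources used here. Each pair of arrays has equal signals at 228 to 2385 probe sets and every array has its lowest signal at 1.72 to 1.73, so how the arrays were scaled to each other is unsettled. Each array was deposited separately, and no pooling is recorded.

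Signals were taken to log2 with a pseudocount of 0. Symbols were updated through RefSeq (GRCm38.p6) by gene ID for 34741 probe sets, otherwise by symbol or by an alias of 1 gene, and 9160 were unnamed. Probe sets at or above a mean of 45.8 (22519) were fitted with limma 3.58.1 in R 4.3.3 (lmFit, eBayes with trend, genotype only, two-sided, Benjamini-Hochberg over all kept). Residual degrees of freedom were 2. Precision is limited by the number of arrays: with 2 in each genotype, the smallest exact permutation p is 0.333. In simulated data with few changed probe sets, the procedure called 2.8% of log2 differences of 0.5, 46.8% of 1 and 90% of 2. A difference that was not called is therefore no sign that the gene was unchanged.

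The members and lists were chosen with earlier results of these data known. Named are all members, Taf7l, the 3 genes of lowest p in each list and any called there, and the 5 nearest profiles of Slc16a12 and Ldhc. Clu, Ctsl, Cst12, Aard, Inhbb, Slc6a8, Ldhal6b, Slc2a3, Nptn and Fshr were added for their function after their values were seen. Igf1r and Fgfr1 were added, also after their values were seen, as receptor genes that were not higher. Alternatives were quantile normalization, median centring, a pseudocount of 16, no filter, a 75th percentile filter, no trend, a robust prior, a replicate block, an adjusted p under 0.10, single-transcript probe sets, 1 probe set per gene, and each array left out. A pseudocount of 16 for the nearest profiles was added after seeing the data. The replicate differences of both genotypes, numbered by title, were nearly uncorrelated (r = 0.03 over 22519 probe sets). This cannot settle whether arrays were paired, because the number of the second knockout array is uncertain. 1 further marker list is not reported here.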

Additional observations from a re-analysis of the deposited data

How the results depend on the processing

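The count of member probe sets called by limma, 1 of 13, was 0 with no filter, 0 with the 75th percentile filter, which removes Slc16a12, and 0 to 0 with any 1 array left out. It was 1 under each of the other 9 alternatives, among them the replicate block, which also left the count of called list genes at 1. That count, 1 of 44, was 0 with no filter, 3 with the 75th percentile filter (Dlat, Pdk2 and Ppib, with Slc16a6 removed), 0 without the trend, 5 at an adjusted p under 0.10, 4 with 1 probe set per gene, and 0 to 0 with any 1 array left out, when the spread comes from the genotype that still has 2 arrays. Over all probe sets limma called 312, and the count moved widely: 148 after quantile normalization, 646 with median centring, 36 without the trend, 541 with the replicate block, 179 over single-transcript probe sets, 805 with 1 probe set per gene, 2375 with the 75th percentile filter, 2628 at an adjusted p under 0.10, 0 with no filter, where 6192 had an unadjusted p under 0.05, and 0 on leaving out each array in turn, where 3084 to 5500 did. The called differences of Slc16a12 and Slc16a6 kept their sign under every alternative that kept these probe sets. Other called probe sets were not checked for a reversal. Of 145 alternative values of member differences, 8 moved by more than the spread between replicates, 7 of them under quantile normalization, all 7 upward. Dim signal limits Slc16a3 and the wild type level of Slc16a12.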
